A study of Mus musculus with 6 samples.

Results

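The genes that direct a mesenchymal cell into the fat lineage, and the genes that mark the fat cell it becomes, were followed in osteoblasts with and without the retinoblastoma protein pRb. Every probe set (a group of short probes for 1 transcript) whose single annotated symbol was Pparg, Cebpa, Cebpb, Cebpd, Fabp4, Adipoq, Lpl, Plin2, Cd36 or Zfp423 was taken, which gave 18 probe sets for these 10 genes, out of 45037 probe sets and 18193 genes on the array. The RNA was that of MC3T3 osteoblasts, 3 cultures being pRb-expressing and 3 pRb-deficient. These are calvarial bone cells immortalized by serial passage, and each culture was hybridized to 1 Affymetrix Mouse Genome array. The cells were isolated from calvariae of mice at embryonic day 18.5 and were grown in α-MEM with 10% fetal bovine serum, and the labels name no agent added to them. The study's methods also describe a medium for osteoblast differentiation with β-glycerophosphate, ascorbic acid and dexamethasone, the last of which is also used to induce fat cells. Whether the cultures on the arrays received this medium is not stated. For MC3T3 cells the methods give α-MEM with serum and antibiotics as the maintenance medium, and the study reports harvest of the lines while they were proliferating. The mice carried the flox19-RB1 allele on a C57BL/6 background together with Col1a1-Cre transgenes (2.3- and 3.6-Col1a1-Cre), in which a Col1a1 promoter drives Cre in cells of the osteoblast lineage. Donors were the F2 offspring of parents with 1 floxed and 1 wild-type allele (RBf19/WT;Col1a1-Cre). The labels call the groups Wild type and Rb Knockout and do not say which cultures carry Cre.

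Fat cells and osteoblasts descend from a shared mesenchymal progenitor. In fat cell differentiation, C/EBPβ and C/EBPδ are induced first and activate PPARγ and C/EBPα, which maintain each other and switch on genes for fatty acid transport, lipid storage and hormone secretion. Zfp423 acts before this cascade and commits progenitors to the preadipocyte state. pRb is known to bind E2F factors and also takes part in lineage choice, through Runx2 in bone and through PPARγ and C/EBP proteins in fat.

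Signals are the authors' MAS5 values, each array scaled to a trimmed mean of 500. Signals under 32, near background, were set to 32 for the test, a value not exceeded by 24.4% to 26.6% of the probe sets of each array. All log2 fold changes are pRb-deficient over pRb-expressing. Adjusted p-values come from limma over the 38427 probe sets above 32 on at least 1 array, with a threshold of 0.05, and a gene is described by its brightest probe set unless another is named. Rb1 itself had signals of 1123.7, 1118.6 and 1105.9 in pRb-expressing and 143.1, 127.1 and 123.5 in pRb-deficient cultures (log2 fold change −3.09, adjusted p = 4.95e-06). Whether the probes of Rb1 lie within the deleted exon was not determined. The labels call the cultures biological replicates but do not say if each came from its own line or animal. The p-values therefore reflect the spread among these 6 cultures alone, and line of origin and pRb status cannot be told apart. Genes on 1 chromosome tended to shift together (chromosome median log2 fold changes from −0.59 on chromosome 6 to 0.42 on chromosome 15 among the autosomes), so results that turn on this are given with the chromosome median removed.

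Of the 10 genes, Plin2 was higher and Cebpa and Zfp423 were lower in pRb-deficient osteoblasts, and the other 7 did not pass the test. Of all 16308 genes tested, 41.9% passed (18.5% higher and 23.4% lower without pRb), so 3 of 10 was no larger a share than among all genes. By probe set, 16 of the 18 could be tested and 3 passed, against 35.0% of all probe sets tested. The signals of the 2 groups did not overlap in 6 of the 18 probe sets, against 43.0% of all probe sets. The brightest probe sets of 4 of the 10 genes, Cebpa, Cebpb, Cebpd and Plin2, were above 32 on all 6 arrays, and that of Zfp423 on all pRb-expressing arrays. Those of Pparg, Fabp4, Adipoq, Lpl and Cd36 were at or below 32 on at least 1 array.

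**Figure D1:**
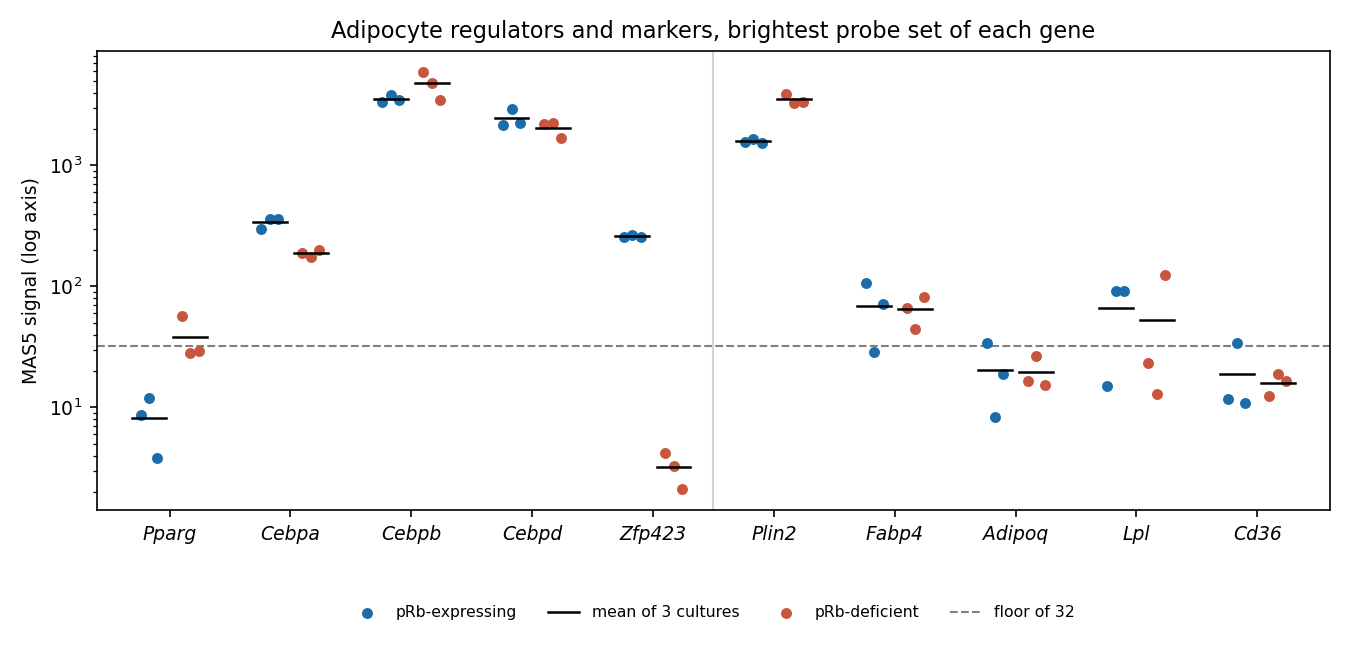
MAS5 signal (log axis) of the brightest probe set of each gene in each culture, pRb-expressing in blue and pRb-deficient in red, with black bars for the mean of 3 cultures and a dashed line at the floor of 32; regulators are on the left of the grey line and fat cell markers on the right. Zfp423 was at 254.7 to 266.3 in pRb-expressing and under the floor in pRb-deficient cultures, Plin2 was higher and Cebpa lower in every pRb-deficient culture, and Adipoq and Cd36 were under the floor on all arrays but 1 each, where they reached 34.3 and 34.4.

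Zfp423 showed the widest separation of the 10 genes. This zinc finger protein marks committed preadipocytes and acts upstream of Pparg. Its signals were 257.2, 266.3 and 254.7 in pRb-expressing cultures and 4.2, 3.3 and 2.1 in pRb-deficient cultures. All pRb-deficient cultures were thus far under the floor and all pRb-expressing cultures within a narrow range above it. Against the floor this is an at least 8.10-fold lower signal (log2 fold change −3.02 ± 0.16 (SE), limma adjusted p = 2.85e-05). The size of this bound follows the floor: with a floor of 100 the log2 fold change was −1.37 and still passed. The gene is on chromosome 8, whose median log2 fold change was 0.08.

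Cebpa encodes C/EBPα, the partner of PPARγ in terminal differentiation. Its signals were 299.6, 358.9 and 360.5 in pRb-expressing cultures and 190.5, 174.6 and 201.6 in pRb-deficient cultures. Every pRb-deficient culture was below every pRb-expressing culture, and the means fell from 340 ± 34.7 to 189 ± 13.6 (SD, n = 3 each, limma on log2 signals giving an adjusted p = 0.00351). The signal was 1.79-fold lower, with a log2 fold change of −0.84 (95% confidence interval −1.18 to −0.51). The median of chromosome 7, where Cebpa lies, was −0.31, and with it removed the log2 fold change was −0.53 and still passed (limma adjusted p = 0.0247).

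Plin2 encodes perilipin 2, a coat protein of lipid droplets that is made in many cell types which store lipid and is not restricted to fat cells. The cultures with pRb gave 1576.3, 1658.5 and 1520.5, and those without it 3927.8, 3290.2 and 3376.2. The lowest pRb-deficient culture was well above the highest pRb-expressing one. The rise was 2.22-fold (95% confidence interval 1.93 to 2.56), or 1.15 ± 0.09 (SE) on the log2 scale (limma adjusted p = 9.85e-05), and the median of its chromosome 4 was 0.09. It was the 1 member gene that was higher and also bright on every array.

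Promoter windows are shown for these 3 genes because they are the members that passed the test. Each is the 250 bases before a transcript start as annotated by RefSeq on GRCm38.p6. Windows were at hand for 7 of the 10 genes; Fabp4, Lpl and Cebpd were not matched. Capitals mark the TATA box letters TATAAA wherever they occur, on either strand.
Cebpa, chr7:35119043-35119292, plus strand: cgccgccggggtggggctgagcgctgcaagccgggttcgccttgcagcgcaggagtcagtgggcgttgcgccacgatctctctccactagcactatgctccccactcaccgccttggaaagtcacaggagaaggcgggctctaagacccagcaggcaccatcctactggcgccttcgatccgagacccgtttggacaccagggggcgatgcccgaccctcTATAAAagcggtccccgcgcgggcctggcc
Plin2, chr4:86670060-86670309, minus strand: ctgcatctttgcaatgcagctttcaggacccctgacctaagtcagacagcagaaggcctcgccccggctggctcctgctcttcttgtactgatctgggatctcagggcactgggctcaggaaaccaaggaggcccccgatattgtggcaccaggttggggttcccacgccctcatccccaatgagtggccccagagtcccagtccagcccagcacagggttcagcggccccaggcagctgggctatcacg
Zfp423, first start, chr8:87959596-87959845, minus strand: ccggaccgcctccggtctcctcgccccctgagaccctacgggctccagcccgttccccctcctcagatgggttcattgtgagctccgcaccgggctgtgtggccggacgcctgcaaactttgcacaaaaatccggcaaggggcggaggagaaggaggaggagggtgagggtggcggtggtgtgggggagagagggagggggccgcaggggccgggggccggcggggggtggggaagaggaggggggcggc
Zfp423, second start, chr8:87804440-87804689, minus strand: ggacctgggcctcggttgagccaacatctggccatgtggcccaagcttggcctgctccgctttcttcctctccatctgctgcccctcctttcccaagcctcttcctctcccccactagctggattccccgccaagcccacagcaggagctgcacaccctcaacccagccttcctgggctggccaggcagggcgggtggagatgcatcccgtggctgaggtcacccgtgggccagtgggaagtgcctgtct
The Cebpa window held TATAAA on the strand of the gene, 30 bases before the start, and 1 of 3 Pparg windows (chr6:115362099-115362348, plus strand) held it on the other strand, 29 bases before the start. Of all 32851 windows 12.4% held these letters. The E2F letters TTTCCCGC, TTTGGCGC and TTTCGCGC, searched on both strands, were in 1.53% of all windows and in none of the 10 member windows, and the same was true of the C/EBP letters TTGCGCAA (0.164% of all windows) and the glucocorticoid receptor letters AGAACA (16.1%). GC content was 66.4% in the Cebpa window, 61.6% in the Plin2 window and 71.6% and 64.8% in the Zfp423 windows, above the median of 52.4% over all windows.

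Pparg, which encodes the nuclear receptor at the centre of fat cell differentiation, was at the edge of measurement. Its signals were 8.7, 11.9 and 3.8 in pRb-expressing cultures and 57.1, 28.1 and 29.2 in pRb-deficient cultures. Every pRb-deficient culture was above every pRb-expressing culture, yet only pRb-deficient replicate 1 was above the floor. With the floor the log2 fold change was 0.28 (95% confidence interval −0.28 to 0.83) and did not pass the test (limma adjusted p = 0.422). Without a floor it was 2.30 and passed (adjusted p = 0.034), as it did with a pseudocount of 32 in place of the floor (0.79, adjusted p = 0.0328), so the call rests on how signals near background are treated. The median of chromosome 6, where Pparg lies, was −0.59.

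The 2 early regulators of the cascade had high signals in both groups. Cebpb encodes C/EBPβ, which starts the cascade and also takes part in osteoblast gene expression and in responses to cytokines and stress. Its brightest probe set had signals of 3377.9, 3844.8 and 3510.9 in pRb-expressing cultures and 5967.9, 4814.0 and 3511.4 in pRb-deficient cultures. Replicates 1 and 2 of the pRb-deficient group were above all pRb-expressing cultures, while replicate 3 was within their range. The log2 fold change was 0.38 (95% confidence interval −0.05 to 0.81) and did not pass (limma adjusted p = 0.159). Without pRb-deficient replicate 1 it was 0.20 (adjusted p = 0.337). Without pRb-deficient replicate 3 it was 0.59 and passed (adjusted p = 0.0089), with array quality weights it was 0.43 (adjusted p = 0.0107), and with the median of chromosome 2 (−0.31) removed it was 0.69 (adjusted p = 0.0377). The other probe set of Cebpb had signals of 1005.8, 1024.1 and 887.9 against 1397.7, 1273.5 and 914.2, with the same pRb-deficient culture inside the pRb-expressing range. Its log2 fold change was 0.28 (limma adjusted p = 0.244), and it passed under the same 3 settings.

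Cebpd encodes C/EBPδ, the other early factor. Its brightest probe set had signals of 2172.9, 2925.6 and 2263.3 in pRb-expressing cultures and 2193.8, 2252.2 and 1673.5 in pRb-deficient cultures. The groups overlapped, and the log2 fold change was −0.27 (95% confidence interval −0.64 to 0.10, limma adjusted p = 0.245). Its other probe set gave 300.5, 337.0 and 280.9 against 273.3, 265.2 and 273.3, which did not overlap but did not pass the test (log2 fold change −0.17, adjusted p = 0.337). With the median of chromosome 16 (−0.40) removed, both changed sign, to 0.14 and 0.23, and neither passed.

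**Figure D2:**
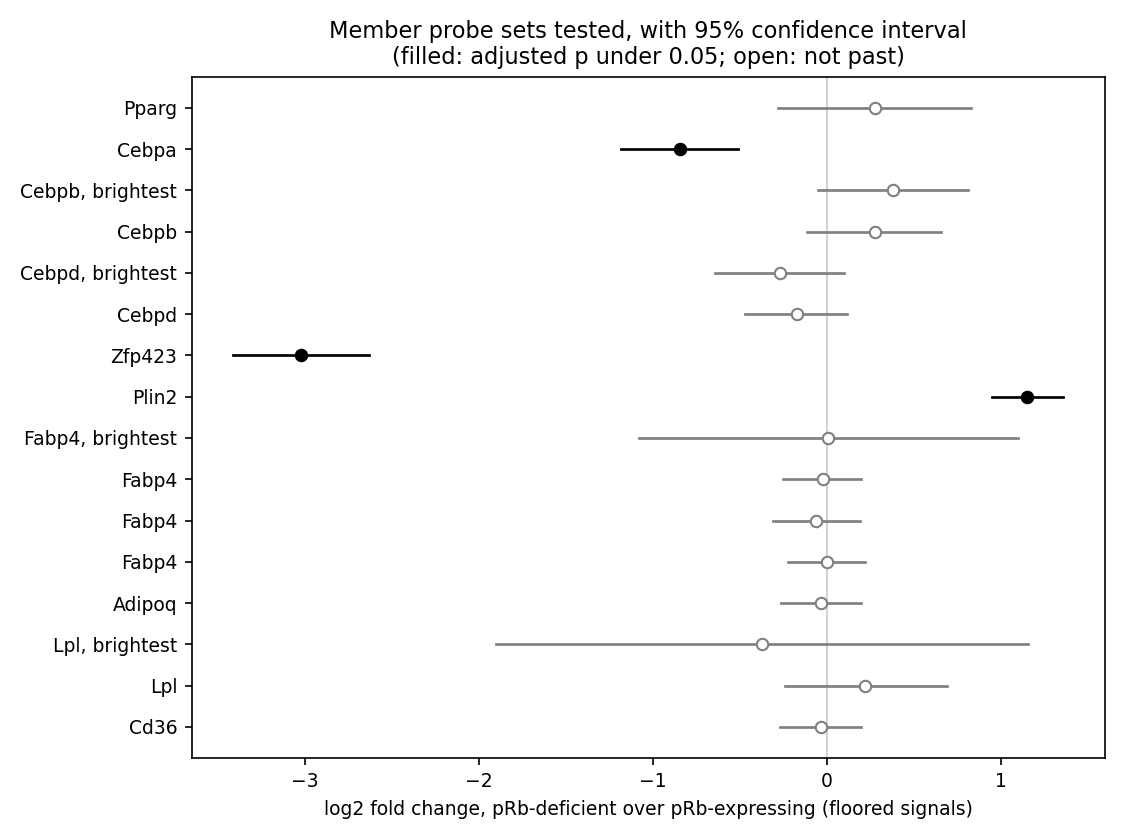
Log2 fold change, pRb-deficient over pRb-expressing, of the 16 probe sets tested of the 10 genes, with 95% confidence intervals from limma on signals floored at 32; filled black points passed an adjusted p of 0.05 and open grey points did not. Zfp423 (−3.02), Cebpa (−0.84) and Plin2 (1.15) passed, and the intervals of the brightest Fabp4 and Lpl probe sets, dim and uneven between cultures, were the widest, reaching down to −1.08 and −1.90.

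The 4 markers of a mature fat cell had low signals in both groups, Adipoq and Cd36 at or under the floor on all but 1 array each and Fabp4 and Lpl mostly below the array medians of 107.7 to 119.5. Fabp4 binds fatty acids inside fat cells, Adipoq is the secreted hormone adiponectin, Lpl releases fatty acids from circulating lipoproteins, and Cd36 takes up fatty acids at the cell surface. Their 10 probe sets gave 60 values, of which 14 were above 32 (8 with and 6 without pRb), and the highest was 123.4. None of the 4 genes passed the test. The brightest probe set of Fabp4 had signals of 106.3, 28.9 and 71.6 in pRb-expressing and 67.0, 44.7 and 82.4 in pRb-deficient cultures, with groups that overlapped throughout and a log2 fold change of 0.01 (limma adjusted p = 0.993). Over all 4 probe sets of this gene, 8 of 24 values were above the floor. Another of them had no overlap (1.4, 2.3 and 12.4 against 13.5, 32.3 and 18.5). Only its 32.3 was above the floor, and it did not pass (limma adjusted p = 0.977). Lpl, which osteoblasts and other mesenchymal cells can also make, had signals of 15.0, 92.6 and 92.2 in pRb-expressing and 23.3, 12.9 and 123.4 in pRb-deficient cultures. Dim and brighter cultures occurred in both groups (log2 fold change −0.37, limma adjusted p = 0.704). The value rested on single cultures, being −1.02 without pRb-deficient replicate 3, which did not pass either, and −0.05 without pRb-deficient replicate 1. Its other probe set gave a log2 fold change of 0.22 (adjusted p = 0.443). Adipoq was at 34.3, 8.3 and 19.0 in pRb-expressing and 16.6, 26.8 and 15.3 in pRb-deficient cultures, so that 1 of 6 values was just above the floor (log2 fold change −0.03, adjusted p = 0.828). The brightest probe set of Cd36 was above the floor only in pRb-expressing replicate 2, at 34.4, and its other 2 probe sets were at or below the floor on all arrays and were not tested. At these signals and this spread between cultures, no difference in these 4 genes was detected, which is not a measure of absence. Differences between signals under 32 could not be seen in the floored values.

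The check against other cell types used marker lists of the same array. Of 6 measured markers of mature fat cells, 4 could be tested and none passed, and Lep, which encodes leptin, and Cidec, a lipid droplet protein, were at or below 32 on all 6 arrays. The members of that list with a mean over 200 were Retn (298 and 241), Slc2a4 (259 and 188) and Lipe (212 and 168 in pRb-expressing and pRb-deficient cultures), and the summed signal of the list was 781 to 816 in pRb-expressing and 502 to 802 in pRb-deficient cultures. Of 7 measured markers of preadipocytes and fibroblast progenitors, 2 were lower, Cd34 (2784 to 844, log2 fold change −1.74) and Pdgfrb (4590 to 3247, −0.51), while Pdgfra had mean signals of 1781 and 2149 and did not pass. Their summed signal was 8777 to 9985 in pRb-expressing and 5606 to 6838 in pRb-deficient cultures. The median log2 fold change of the 6 that could be tested was −0.01, against −0.09 over all genes. All 6 measured osteoblast markers passed, 5 lower and 1 higher. Sp7, the osteoblast factor osterix, fell from 1833 to 124, Col1a1 from 18818 to 10945, Dmp1 from 496 to 6.13 and Alpl from 298 to 135. The bone sialoprotein gene Ibsp fell from 2311 to 3.50 (log2 fold change −6.15) and was under the floor in every pRb-deficient culture. Phex was the higher one, its mean going from 28.0 to 128. The other 5 markers were above the floor in all pRb-expressing cultures, and Ibsp and Dmp1 were under it in all pRb-deficient ones, which the labels also call osteoblasts. The summed signal of the list was 22718 to 25106 there against 9026 to 13916. Of 9 tested macrophage markers, Cd68 (105 to 194) and Cd14 (268 to 984) were higher and Lyz2 (1612 to 113) was lower, Csf1r was at 439 and 427, and the summed signal was 2714 to 2909 in pRb-expressing and 1964 to 2188 in pRb-deficient cultures. No endothelial marker of 7 tested passed, Kdr being at 271 and 265, with summed signals of 603 to 682 and 583 to 624. The part of these cell types in the results for Zfp423, Cebpa and Plin2 was not tested, and in bulk cultures fewer cells of a type and less RNA per cell cannot be told apart.

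Among the partners and relatives of PPARγ and the C/EBP proteins, 6 of 7 measured genes could be tested, and 1 was higher and 1 lower. Ppard encodes PPARδ, a broadly expressed receptor for fatty acids that binds the same DNA elements as PPARγ. Its signals were 310.5, 333.2 and 283.8 in pRb-expressing and 704.7, 887.6 and 1040.2 in pRb-deficient cultures, a 2.81-fold rise with no overlap (log2 fold change 1.49 ± 0.16 (SE), limma adjusted p = 0.000428). Rxra encodes RXRα, the receptor with which PPAR proteins pair on DNA. It fell from 920.3, 989.5 and 993.9 to 454.8, 465.7 and 489.8, again with no overlap (log2 fold change −1.04, limma adjusted p = 0.000107), and a second probe set was also lower (adjusted p = 0.0237). Ppara, Rxrb and Cebpg did not pass (log2 fold changes 0.05, −0.20 and 0.07), and Rxrg, a further RXR, was at or below the floor on all arrays. The median log2 fold change of the list was 0.06, against −0.09 over all genes, and was 0.21 with chromosome medians removed.

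Ddit3 encodes CHOP, a C/EBP relative induced by stress of the endoplasmic reticulum that pairs with C/EBPα and C/EBPβ and blocks their binding to most sites. It had signals of 1138.1, 1183.9 and 1179.4 in pRb-expressing cultures, which hardly differed, and 7892.2, 2513.5 and 1210.5 in pRb-deficient cultures. Replicate 1 of the pRb-deficient group was far above the rest and replicate 3 only just above the pRb-expressing range. The log2 fold change was 1.31 ± 0.60 (SE) and did not pass (limma adjusted p = 0.146), and without pRb-deficient replicate 1 it was 0.58 and did not pass either. Without pRb-deficient replicate 3 it was 1.93 (adjusted p = 0.0175), and with array quality weights 1.13 (adjusted p = 0.0209). Replicate 1 was the highest and replicate 3 the lowest of the 3 pRb-deficient cultures in Cebpb as well. The same held for Trib3, a pseudokinase induced downstream of CHOP, with 3050.0, 1517.5 and 481.3 in pRb-deficient cultures against 704.4, 850.4 and 922.1. It held too for Klf15, a factor that promotes fat cell differentiation, at 296.6, 75.7 and 9.3 against 2.6, 5.1 and 2.2. Trib3 and Klf15 did not pass the test. Cebpd did not show this order, its pRb-deficient cultures being at 2193.8, 2252.2 and 1673.5. Id2, listed among genes that hold back fat cell differentiation, had the reverse order, at 1006.8, 1247.1 and 1671.4. How many of all probe sets share the order was not counted. Trib3, Klf15 and Id2 were named after their values were seen.

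**Figure D3:**
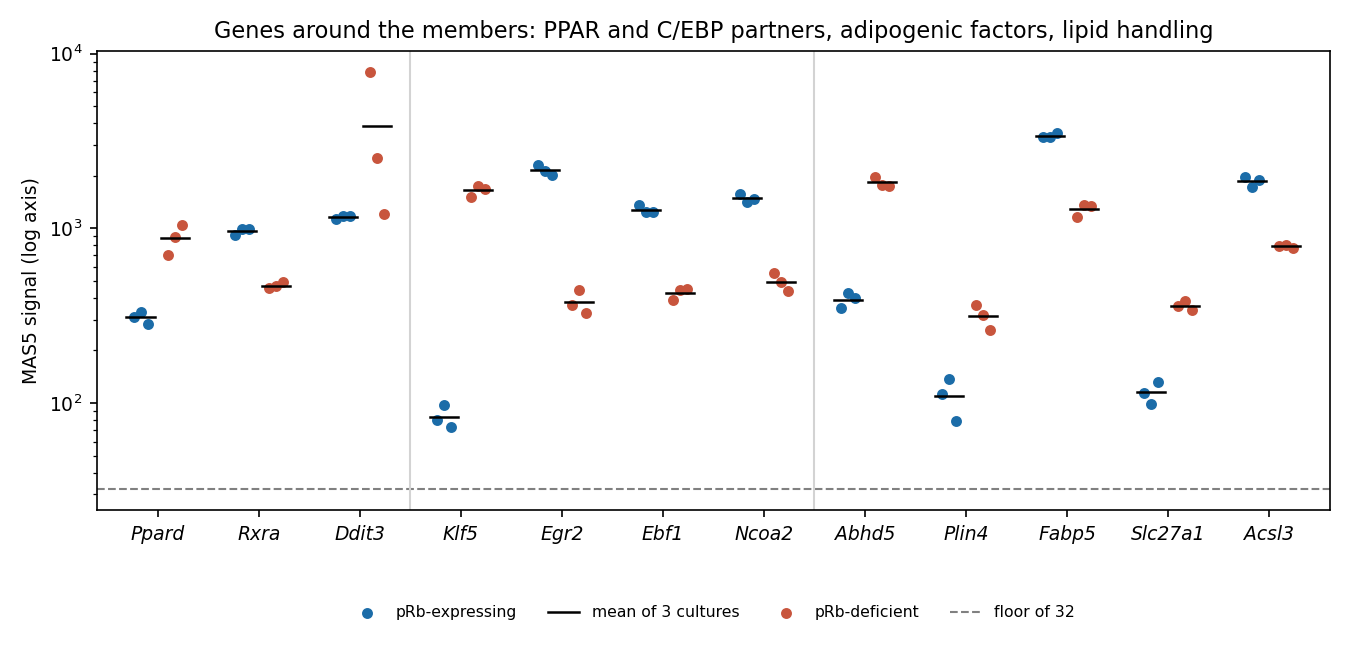
MAS5 signal (log axis) of 12 genes around the members in each culture, pRb-expressing in blue and pRb-deficient in red, with black bars for the mean of 3 cultures and a dashed line at the floor of 32; grey lines separate PPAR and C/EBP relatives, adipogenic factors and genes of lipid handling. Ddit3 ranged from 1210.5 to 7892.2 in pRb-deficient cultures, while the groups were separate and the cultures close together in Klf5 (83.5 to 1648 in means) and Abhd5 (391 to 1837).

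The wider set of genes around fat cell differentiation moved in both directions. Over 8 lists, 119 of 128 measured genes could be tested, of which 26 were higher, 34 lower and 59 did not pass, with a median log2 fold change of −0.04. These shares are to be read beside the 18.5% higher and 23.4% lower among all genes tested. The lower side was not favoured under every scaling, with 27 higher and 29 lower list genes when arrays were centred on their medians and 31 higher and 29 lower with chromosome medians removed. Of 25 other factors that promote fat cell differentiation, 4 were higher and 12 lower (median −0.44), against 5 and 10 with chromosome medians removed (median −0.16). Klf5, which C/EBPβ induces in early fat cell differentiation, rose 19.9-fold, from 80.2, 97.7 and 72.6 to 1516.3, 1754.1 and 1675.1 (log2 fold change 4.31, limma adjusted p = 4.75e-06). Other Klf5 probe sets rose less, from a mean of 125 to 371 (2.97-fold) and, near the floor, from 14.6 to 45.7 (1.42-fold). Egr2, an early growth response factor also called Krox20 that acts ahead of C/EBPβ, fell from a mean of 2152 to 378. Ebf1, an early B-cell factor that also acts in the fat lineage, fell from 1278 to 428, and the nuclear receptor coactivator Ncoa2 from 1485 to 495. Thus the early factors Klf5 and Egr2 lay on opposite sides.

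Of 25 tested genes listed here as holding back fat cell differentiation, 5 were higher and 9 lower (median −0.01). With chromosome medians removed, 6 were higher and 10 lower (median −0.20). Of the 4 Wnt ligands in the list, Wnt5a rose from a mean of 69.2 to 1267 (log2 fold change 4.23) and Wnt6 fell from 884 to 173 (−2.36), while Wnt10a (747 and 832) and Wnt10b (283 and 249) did not pass. Another Wnt5a probe set did not pass (113 and 119, log2 fold change 0.08, limma adjusted p = 0.855), while the remaining ones also rose. Wwtr1, which encodes TAZ, a coactivator of Runx2 and corepressor of PPARγ, rose from 3064 to 5255 (0.78), and Klf7 fell from 968 to 487 (−0.99). Wnt5a, Wnt6, Wwtr1 and Klf7 passed with adjusted p-values of 0.00022 or lower from limma.

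**Figure D4:**
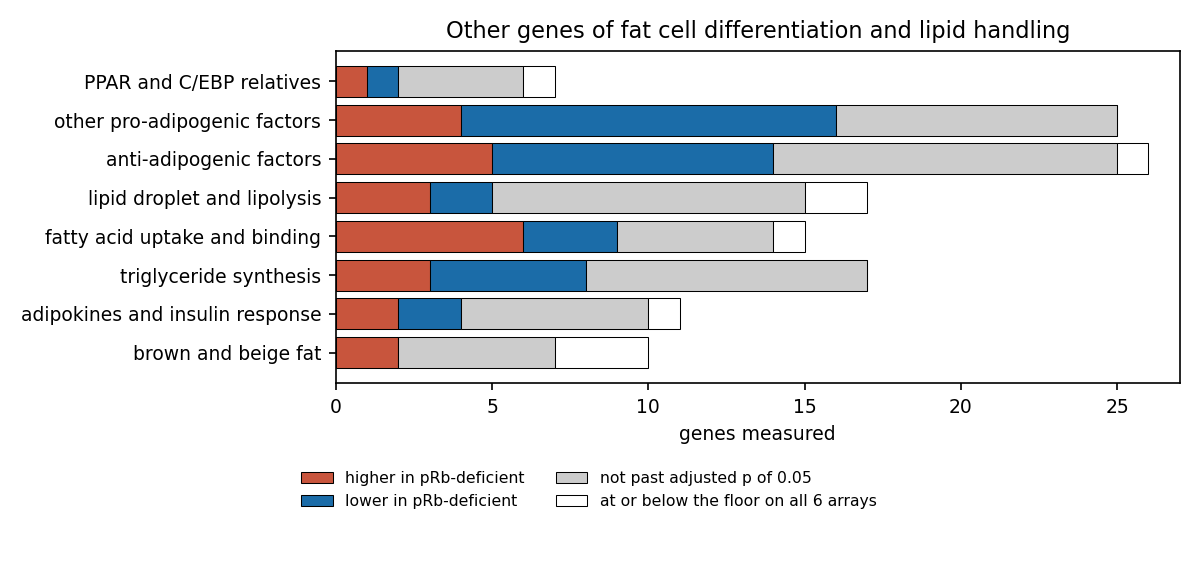
Number of measured genes in 8 lists that were higher (red) or lower (blue) in pRb-deficient cultures at an adjusted p of 0.05 from limma, did not pass (grey), or were at or below 32 on all 6 arrays and not tested (white). The list of other pro-adipogenic factors had 12 lower against 4 higher genes, and that of fatty acid uptake and binding 6 higher against 3 lower.

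Beside Plin2, the genes of lipid droplets and lipolysis gave 3 higher and 2 lower of 15 tested (median −0.12, which turned to 0.14 with chromosome medians removed). Abhd5, which releases the lipase ATGL from its inhibition at the droplet, rose 4.71-fold, from 348.4, 427.9 and 397.4 to 1979.3, 1776.9 and 1755.4 (log2 fold change 2.23, limma adjusted p = 1.46e-05). Plin4, a perilipin of nascent droplets, rose from a mean of 109 to 314 (1.54, adjusted p = 0.0028), while Plin3 (1354 and 1249) and Plin5 (103 and 83.7) did not pass. Of the perilipins measured, Plin2 and Plin4 were thus the higher ones, while Plin1 was listed but had no measured probe set. Cavin1, a coat protein of caveolae that fat cells make in abundance, fell from 6155 to 3012 (−1.04). Cav1, caveolin 1, fell from 8699 to 6418 (−0.44, adjusted p = 0.00956). It did not pass with arrays centred on their medians (−0.38, adjusted p = 0.0527), and its sign turned with the chromosome median removed (0.14).

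Of the genes for fatty acid uptake and binding, 6 were higher and 3 lower of 14 tested (median 0.27). Fabp5, a close relative of Fabp4 that is made in many tissues, was bright and fell from 3349.1, 3327.2 and 3524.0 to 1159.4, 1369.3 and 1345.5 (log2 fold change −1.40, limma adjusted p = 3.87e-05). The 2 acyl-CoA synthetases named by their p-values went opposite ways, Acsl3 falling from a mean of 1866 to 790 and Acsl4 rising from 1193 to 2469. Slc27a1, a fatty acid transport protein, rose from 115 to 360 (1.65, adjusted p = 0.000341). Among 17 genes of triglyceride synthesis, 3 were higher and 5 lower (median −0.02), which became 5 higher and 4 lower with chromosome medians removed. Without pRb-expressing replicate 2, or without pRb-expressing replicate 3, the number lower was 3. The elongase Elovl6 (1454 to 829), the desaturase Scd2 (18339 to 12661) and the ATP citrate lyase Acly (6188 to 3508) fell, and the lipin Lpin2 rose (1068 to 1458). Another Lpin2 probe set also rose (439 to 647), while those at 281 and 373 and near the floor did not pass. With the median of chromosome 11 (−0.51) removed, Acly no longer passed (log2 fold change −0.33, adjusted p = 0.132).

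Of 10 tested genes for hormones and the insulin response, 2 were higher, 2 lower and 6 did not pass (median 0.04), against 3 higher and 0 lower with chromosome medians removed. Nampt, an enzyme of NAD synthesis also secreted as visfatin, rose from a mean of 571 to 1179, and Rbp4, which carries retinol, rose from 64.9 to 197. Another Nampt probe set did not pass (129 and 180, log2 fold change 0.49, limma adjusted p = 0.124), and a further one rose less (440 to 566). Irs1, the insulin receptor substrate, fell from 10542 to 5720 and the adiponectin receptor Adipor2 from 1951 to 1467. Neither of these falls passed with the chromosome median removed (log2 fold changes −0.40 and 0.17). The other Adipor2 probe set did not pass in the main fit (414 and 299, limma adjusted p = 0.2). Of 10 measured genes of brown and beige fat, 7 could be tested and 2 were higher, none lower. The median was 0.13, which turned to −0.01 with chromosome medians removed. Zic1, a factor of axial mesoderm and neural tissue used as a marker of brown fat, was at 26.4, 13.2 and 31.0, under the floor, in pRb-expressing cultures and at 968.6, 1005.7 and 859.1 in pRb-deficient cultures, at least 29.4-fold higher. Tnfrsf9, a costimulatory receptor of T cells used as a marker of beige fat cells, rose from a mean of 153 to 2633. Another Tnfrsf9 probe set also rose (8.13 to 888), and a further one did not pass (61.8 and 54.2, log2 fold change −0.19, limma adjusted p = 0.504). Ucp1, which defines thermogenic fat cells, was at or below the floor on all arrays. Prdm16, a regulator of brown fat identity, was counted here among the pro-adipogenic factors and named after its values were seen. It rose from 22.5, 28.4 and 25.8 to 258.8, 172.6 and 191.4 (log2 fold change 2.68, limma adjusted p = 0.000121). No rise was seen in Ppargc1b, Ppargc1a or Ebf2 of the same list, also named after their values were seen. Ppargc1b fell from a mean of 229 to 110 (−1.12, limma adjusted p = 0.0279), while Ppargc1a (−0.34) and Ebf2 (−0.25) did not pass.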

How the data were processed

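Total RNA from 6 cultures was biotin-labeled and hybridized by the authors, 1 array per culture. The intensities deposited by the authors are linear MAS5 signals scaled to a trimmed mean of 500, with Affymetrix Expression Console 1.1 named in the submitters' processing notes. Detection calls were not used here, and the number of arrays limits the precision. After removal of 64 control probe sets, values under 32 were set to 32, and log2 values were modelled in limma 3.58.1 (R 4.3.3; lmFit, eBayes with intensity trend), the group being the only term, with 4 residual degrees of freedom. P-values were two-sided and adjusted by Benjamini-Hochberg over 38427 probe sets. An exact test of 3 against 3 cannot go below p = 0.10. In the annotation 34945 probe sets had a single symbol, 932 had several and 9160 had none. Named by rule were all members, Rb1, all PPAR and C/EBP relatives and marker genes with a mean over 200. From each list, the 4 genes with the lowest adjusted p among those past the threshold were also named (fewer where fewer passed). Plin3, Plin5, Wnt10a, Wnt10b, Ucp1, Lep, Cidec, Phex and Cd68 were named outside this rule. So were the genes marked in the text as named after their values were seen. The members and lists were chosen with earlier results of these data known. List genes without a measured probe set were not analysed here. Alternatives were other floors, filters, scalings, variance models, tests and probe sets, a replicate block, removal of chromosome medians (over probe sets whose mean reached 200) and leaving out each array. The steps were tested on simulated data.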

Additional observations from a re-analysis of the deposited data

How the results depend on the processing

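The calls of Cebpa, Plin2 and Zfp423 held in 54 of 57 alternative values. The other 3 are the exact rank test, which with 3 cultures against 3 calls none of the 38427 probe sets: it gave 0 in place of 13433 probe sets, 3 member probe sets, 3 member genes and 60 list genes, while 19383 probe sets had no overlap. A minimum change of 2-fold left 5134 of the 13433 probe sets and 2 of the 3 member genes. The count of member probe sets called was 5 with the chromosome median removed and with array quality weights, and ranged from 3 to 5 when 1 culture was left out, 5 being without pRb-deficient replicate 3; the member genes ranged from 3 to 4. Of 218 alternative values for the 13 other member probe sets, 8 passed the threshold and 14 had the opposite sign. With the chromosome median removed, signs turned for Cebpd (0.14 and 0.23), Adipoq (0.02), 2 probe sets of Fabp4 (−0.13 and −0.00), Cav1 (0.14), Adipor2 (0.17), Ppara (−0.17) and Rxrb (0.04). The brightest Fabp4 probe set was also at −0.03 with a floor of 100, −0.00 with a pseudocount, −0.55 with quality weights and −0.02 as the mean of all probe sets, Adipoq was at 0.11 without a floor and Lpl at 0.10 with a floor of 100. When 1 culture was left out, the log2 fold change ranged from −0.48 to 0.39 for Fabp4, −1.02 to −0.05 for Lpl, −0.11 to 0.21 for Ppara, −0.36 to 0.08 for Rxrb and −0.03 to 0.17 for Cebpg. The log2 fold change of Zfp423 ranged from −6.40 without a floor to −1.37 with a floor of 100. The causes were not tested. Equal replicate numbers did not mark pairs (correlations of deviations 0.02, −0.04 and 0.06), and with a replicate block 12365 probe sets, 3 member probe sets and 59 list genes passed. Signals near 32, or uneven between cultures, limit what can be said of Pparg, Fabp4, Adipoq, Lpl and Cd36.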

Other observations

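Vldlr, the very low density lipoprotein receptor, which brings triglyceride-rich particles to cells, had signals of 662.7, 760.4 and 896.4 in pRb-expressing and 2832.4, 1934.8 and 839.3 in pRb-deficient cultures. Replicate 3 of the pRb-deficient group lay within the pRb-expressing range, and the log2 fold change of 1.12 did not pass (adjusted p = 0.078 from limma). Klf4, a factor of early fat cell differentiation, fell from 3952.1, 4926.0 and 4068.6 to 1936.8, 1585.9 and 1400.4 (log2 fold change −1.40, adjusted p = 0.000347). Sirt1, a deacetylase that represses PPARγ, rose from a mean of 685 to 1056 (0.63, adjusted p = 0.00167). Dlk1, the preadipocyte protein Pref-1, was dim in both groups, at 59.2, 101.4 and 63.8 in pRb-expressing and 93.0, 85.2 and 98.8 in pRb-deficient cultures, and did not pass (adjusted p = 0.351 from limma). These genes were named after their values were seen.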
